A study of Mus musculus with 4 samples.

Results

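The genes described are the factors that start protein synthesis and lengthen the peptide chain on cytosolic ribosomes. They were taken from the deposited expression table by symbol, as names beginning with Eif and a digit from 1 to 6 or with Eef and a digit of 1 or 2. The rule left out Eif2s3y, Eif2ak2 and pseudogenes, and asked for a mean of at least 20 normalized counts over the 4 libraries. Of the 49490 genes in the table, 73 matched the name patterns, 9 of these were left out by name and 3 lay under the mean, which left 61 genes. The mean over all libraries therefore chose the members, and their overall level is given as a description. Just inside the limit stood Eif4ebp3 with a mean of 22.0 normalized counts, and just outside it stood Eif4e1b with 9.74. Eef1a2, the form of elongation factor 1 alpha found in muscle and neurons, and Eif2c5 were listed at 0 in all libraries.

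Translation begins when eIF2 carries the initiator tRNA to the small ribosomal subunit, which eIF3, eIF1 and eIF1A hold open while the eIF4F complex brings in the capped mRNA. After the start codon is found, eIF5 and eIF5B allow the large subunit to join, and eEF1A then delivers each aminoacyl-tRNA while eEF2 moves the ribosome along the message. T lymphocytes raise protein synthesis when they are activated, largely through mTOR signalling, which frees eIF4E from its binding proteins, and many mRNAs of this machinery are themselves under mTOR control.

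Polyadenylated RNA was sequenced from mouse CD8+ T cells of spleens and lymph nodes that had been activated in culture. The 4 libraries comprised 2 labelled Irf8 knockout (Irf8-/-), called KO-labelled below, and 2 labelled WT, called WT-labelled, which carried an Irf8 allele flanked by recombination sites (Irf8fl/fl) according to the series' design. The labels do not give a Cre driver, the animals' age or sex, or whether the replicates came from separate animals, so the p-values reflect how far these libraries scatter, and that scatter may be technical alone. The recovered reads numbered 59091255 and 59489280 in KO-labelled libraries, against 58899365 and 59724952 in WT-labelled libraries.

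The targeted gene went against the labels. Irf8, a transcription factor of dendritic and other immune cells (chr8:120736358-120756694 in GRCm38), had 89508 and 90222 normalized counts in KO-labelled libraries, against 6364 and 6081 in WT-labelled libraries. In the means this is 14.4-fold more in the libraries labelled knockout (limma on log2 values, adjusted p = 4.32e-08), and every direction given here is that of the labels. Which exons the knockout removes is not given in the sources used here. Defining markers of CD8 T cells, such as Cd3e and Cd8a, were present in all libraries, and the sum of the 10 markers on the T cell list was 380719 and 384120 in KO-labelled libraries, against 544011 and 539891 in WT-labelled libraries, with 9 of the 10 lower. Other cell types' markers also moved with the labels. The summed level of 10 plasmacytoid dendritic cell markers was 278940 and 279974 in KO-labelled libraries, against 10645 and 10710 in WT-labelled libraries, with all 10 higher, and that of 8 conventional dendritic cell markers was 171846 and 177171 in KO-labelled libraries, against 23396 and 23379 in WT-labelled libraries, with 7 higher. Most of the latter sum in KO-labelled libraries came from the MHC class II genes H2-Aa and H2-Ab1. H2-Aa had 77125 and 77689 in KO-labelled libraries, against 4588 and 4817 in WT-labelled libraries. H2-Ab1 had 69498 and 74401 in KO-labelled libraries, against 5268 and 5333 in WT-labelled libraries. Xcr1, also on that list, was at 0.02 on the log2 scale and not called. Sums for 6 neutrophil markers were 2548 and 2636 in KO-labelled libraries, against 79.4 and 119 in WT-labelled libraries, with all 6 higher and 3 of them at 0 in the libraries labelled WT. For 7 macrophage markers, 1 of which was higher and 4 lower, they were 13023 and 12857 in KO-labelled libraries, against 4899 and 4820 in WT-labelled libraries. The higher gene was Cd68, and without it the sums were 1632 and 1939 in KO-labelled libraries, against 3212 and 2872 in WT-labelled libraries. For 6 B cell markers, 1 of which was higher, they were 1272 and 1298 in KO-labelled libraries, against 312 and 278 in WT-labelled libraries. That gene was Cd79b, and the other 5 summed to 160 and 186 in KO-labelled libraries, against 174 and 144 in WT-labelled libraries. The part of these cells in the differences below was not tested. In bulk RNA, fewer cells of a type and less RNA per cell cannot be told apart.

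Start sites of the members were looked up because many mRNAs of the translation machinery begin with a C followed by a run of pyrimidines, the element through which mTOR acts on them. RefSeq promoters of build GRCm38.p6 were matched by symbol for 47 of the 61 members, 7 of which had more than 1 start. The 20 bases before and the 20 bases from the annotated start are shown, 5′ to 3′ on the gene's strand, for 6 abundant genes that fell, among them Eif3m with the lowest ratio, and for Eif4a1, which was higher. Capitals mark the TATA motif TATAAA, the ETS-type motif CCGGAAG, the E-box CACGTG (these on both strands) and, on the gene's strand, a C followed by at least 4 pyrimidines.
Eef1a1 (chr9:78481705-78481744, minus strand): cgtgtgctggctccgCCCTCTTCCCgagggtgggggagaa
Eef2 (chr10:81176611-81176650, plus strand): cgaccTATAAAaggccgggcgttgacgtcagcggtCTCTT
Eif1 (chr11:100319929-100319968, plus strand): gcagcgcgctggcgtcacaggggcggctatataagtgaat
Eif3f (chr7:108934395-108934434, plus strand): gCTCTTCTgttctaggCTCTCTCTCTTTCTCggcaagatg
Eef1b2 (chr1:63176811-63176850, plus strand): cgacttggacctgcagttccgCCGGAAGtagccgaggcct
Eif3m (chr2:105017008-105017047, minus strand): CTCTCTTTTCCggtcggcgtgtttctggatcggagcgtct
Eif4a1 (chr11:69672404-69672443, minus strand): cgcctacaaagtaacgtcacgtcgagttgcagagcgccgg
The pyrimidine run spans the annotated start of Eef1a1 and Eif3f, lies further downstream in Eef2 and upstream in Eif3m, and is not in the windows of Eif1, Eef1b2 and Eif4a1.

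Over the 47 members with a promoter, a C followed by at least 4 pyrimidines was in the 40-base window of 22, or 46.8%, against 49.9% of all 27025 genes with a promoter in the table. The letters CCGGAAG were in the 300-base promoters of 17 members (36.2%, against 9.93% of all genes). CACGTG was in 12 members (25.5%, against 8.09%) and TATAAA in 4 (8.51%, against 15.7%). Among the 22 members with the pyrimidine run, 2 were higher and 7 lower, and among the other 25 members 1 was higher and 7 lower. With CCGGAAG, 1 of 17 was higher and 5 lower, against 2 and 9 of the 30 without it. With CACGTG, 2 of 12 were higher and 3 lower, against 1 and 11 of the 35 without it. Of the 4 with TATAAA, 3 were lower, against 3 higher and 11 lower of the 43 without it. Over all genes tested 19.9% were higher and 13.4% lower. Among genes with a mean of at least 1000 normalized counts the shares were 21.8% and 24.1%. Differences between members with and without a motif were not tested. These matches describe letters in fixed windows and do not mark a factor's site.

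Translation factor transcripts were more often lower than higher in the libraries labelled knockout. Of the 61 genes, all of which passed the filter on low values, 21 fell and 3 rose at an adjusted p under 0.05 (limma on log2 of the normalized count plus 1), while 37 were not called. Of the 37, 8 had an unadjusted p under 0.05. Over all 18378 genes tested the order was the other way, with 13.4% lower and 19.9% higher. The median log2 fold change of the 61 genes was -0.14, beside 0.02 over all genes tested. Since these are abundant genes, the 7739 genes with a mean of at least 1000 normalized counts are a nearer comparison, and of these 24.1% were lower and 21.8% higher, with a median of -0.03. Called in either direction were 24 of the 61, or 39.3%, where the share of all genes tested was 33.4%. All 24 called members had groups that did not overlap. Counted without a test, 36 members had both libraries labelled knockout below both labelled WT and 10 had both above, where the share of all genes tested was 32.3% and 36.5%, or 68.8% in either direction. Without replicate 1 labelled knockout the count of lower members was 13, and with values centred on the median it was 56. That centring shifted the median of all genes by -0.30, and higher genes then made up 24.9% of all calls over the table (47.0% with upper-quartile factors), beside 59.7% on the scale used here.

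The changes were small apart from 1 gene. Among the 21 members that fell, the ratio of group means lay between 0.758 for Eif3m and 0.895 for Eif3c. Eef2k, the kinase of eEF2, was the only member that changed by more than 1.5-fold. The other members that rose, Eif4a1 and Eif4enif1, had log2 fold changes of 0.22 and 0.23, and both values fell below 0 under median centring (-0.08 and -0.07).

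**Figure D1:**
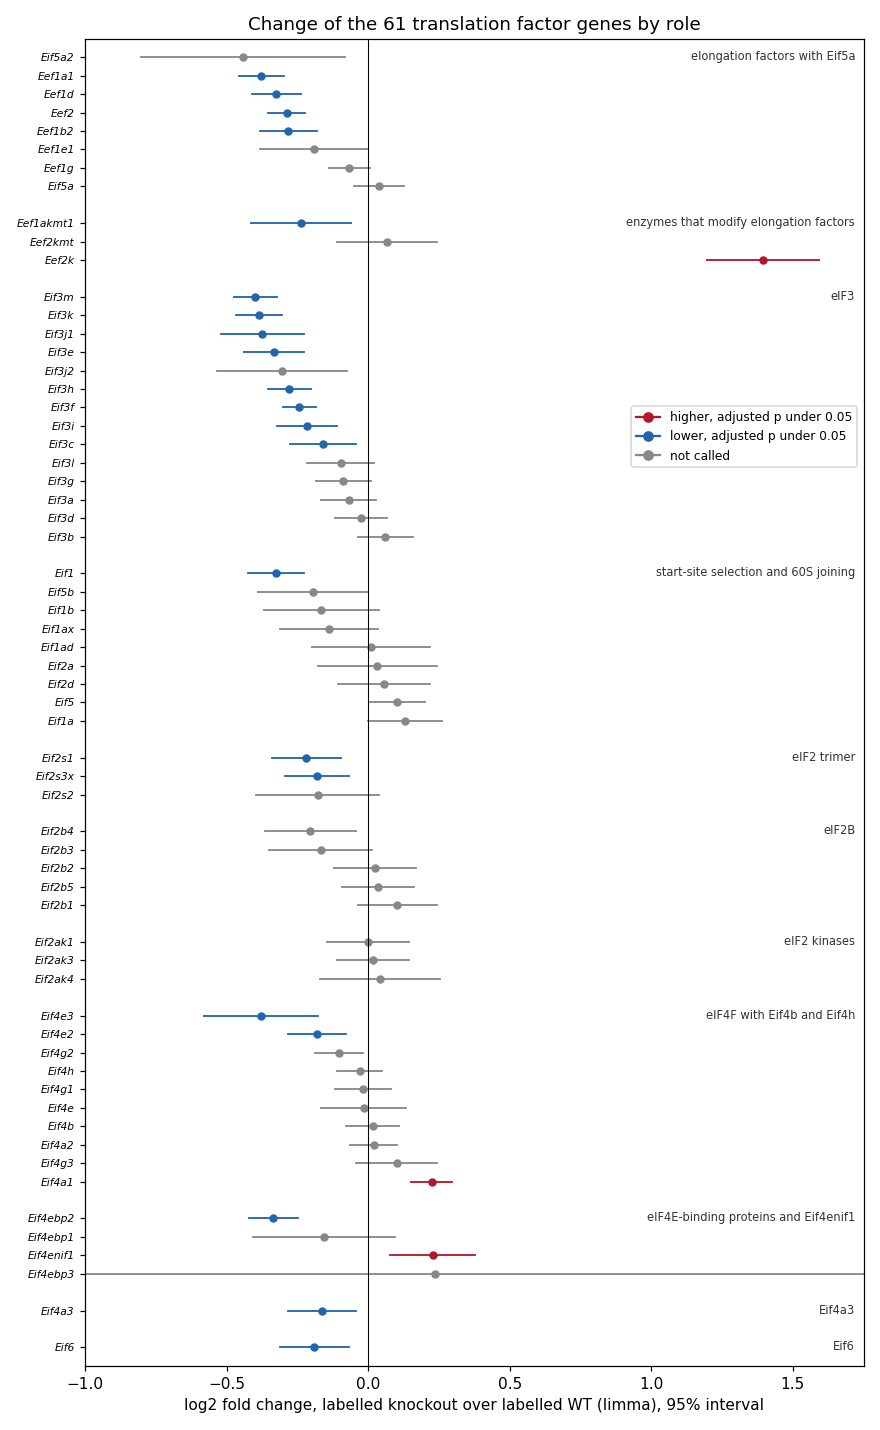
Log2 fold change of each of the 61 genes, libraries labelled knockout over those labelled WT, grouped by role; points are limma estimates on log2 of the normalized count plus 1, lines are 95% intervals (that of Eif4ebp3 runs past the axis) and colours mark calls at an adjusted p under 0.05. Called lower genes lie mostly in eIF3 and among the elongation factors, and Eef2k stands at 1.40.

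The elongation factors Eef1a1 and Eef2 were the most abundant members, while others of their role, such as Eef1e1 and Eif5a2, were among the least abundant. Of the 8 genes grouped as elongation factors with Eif5a, 4 fell (beside 13.4% of all genes tested and 24.1% of abundant ones). The median log2 fold change over the 8 was -0.29. Eef1a1, which brings aminoacyl-tRNAs to the ribosome (chr9:78478449-78489151, minus strand), had 390619 and 367098 normalized counts in KO-labelled libraries, against 497510 and 486493 in WT-labelled libraries. Its groups did not overlap, and the log2 fold change was -0.38 ± 0.03 (SE, n = 2 each; limma adjusted p = 2.98e-04). Eef2, the translocase (chr10:81176631-81182498, plus strand), had 271363 and 266802 in KO-labelled libraries, against 335779 and 321729 in WT-labelled libraries, a log2 fold change of -0.29 ± 0.03 (limma adjusted p = 4.13e-04). Both labelled knockout libraries were below both labelled WT for each gene, and the replicates of a group lay closer to each other than to the other group.

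Per length, by the mean over both groups, Eef1a1 stood first among the 61 genes, at 2625 ± 115 RPKM (reads scaled to exon length and to all reads of the library) in KO-labelled libraries and 3264 ± 91.6 in WT-labelled libraries (SD, n = 2 each). Eef2 came next at 1398 ± 16.9 RPKM in KO-labelled and 1636 ± 69.4 in WT-labelled libraries. Eif1 followed with 878 ± 6.77 RPKM in KO-labelled and 1054 ± 49.3 in WT-labelled libraries. On this scale, which divides by all reads of a library, the ratio of Eef1a1 was 0.804, where normalized counts, which use the authors' size factors, gave 0.770.

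In the complex that recharges eEF1A with GTP, Eef1b2 and Eef1d were called and Eef1g was not. Eef1b2, the catalytic beta subunit, had 28004 and 27965 normalized counts in KO-labelled libraries, against 35360 and 32763 in WT-labelled libraries (log2 fold change -0.28 ± 0.04, limma adjusted p = 0.00318). Eef1d, the delta subunit with the same exchange activity, had 11409 and 11431 in KO-labelled libraries, against 14544 and 14058 in WT-labelled libraries (-0.32 ± 0.04, limma adjusted p = 9.44e-04). Eef1g, the gamma subunit that holds this complex together, had 50210 and 50260 in KO-labelled libraries, against 53600.5 and 51610.5 in WT-labelled libraries. That difference was -0.07 on the log2 scale with an interval of -0.14 to 0.01 and was not called (limma adjusted p = 0.142), although the groups did not overlap. Under median centring Eef1g was at -0.37 and called lower. The difference between Eef1g and the other subunits was itself not tested. Eef1e1, named as an elongation factor and known as a subunit of the multi-tRNA synthetase complex, was at -0.19 and not called (limma adjusted p = 0.112).

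Eif5a, the hypusine-bearing factor that helps the ribosome through difficult peptide bonds such as runs of proline, had 41016 and 42826 normalized counts in KO-labelled libraries, against 41669 and 39913 in WT-labelled libraries. These values overlap, and the log2 fold change of 0.04 had an interval of -0.05 to 0.13 (limma adjusted p = 0.454), while under median centring it was -0.26 and called (limma adjusted p = 0.00307). Its paralog Eif5a2 had 325 and 271 in KO-labelled libraries, against 386 and 423 in WT-labelled libraries, a log2 fold change of -0.44 that was not called (limma adjusted p = 0.0647). It was called lower under median centring (-0.74, limma adjusted p = 0.00567) and with upper-quartile factors (-0.52, edgeR adjusted p = 0.0292). Per length, Eif5a2 made up 0.374% and 0.298% of the pair in KO-labelled libraries, against 0.436% and 0.498% in WT-labelled libraries.

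**Figure D2:**
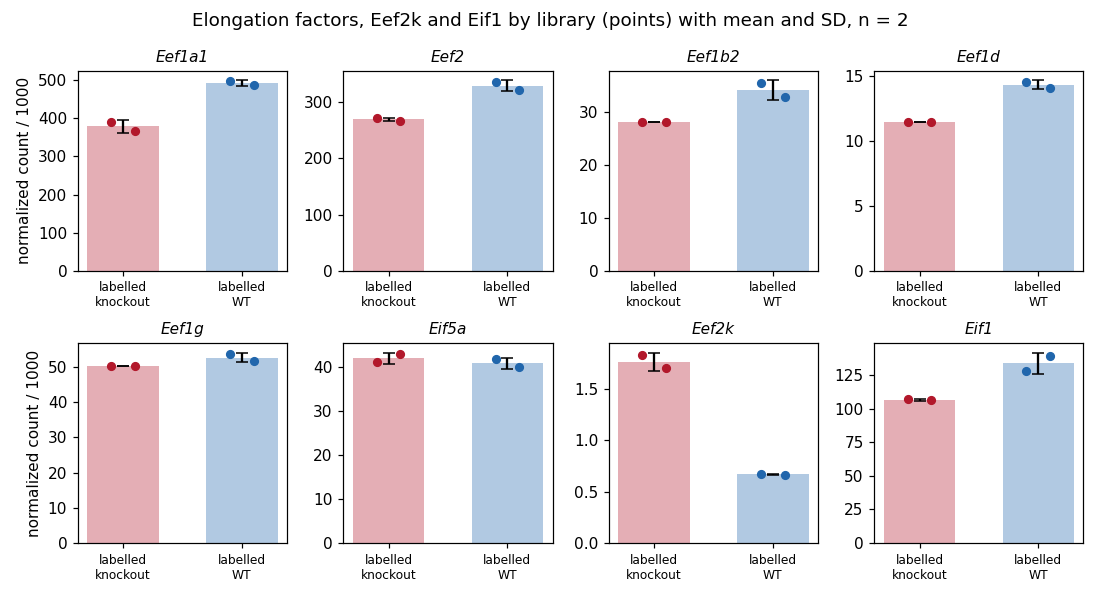
Normalized counts divided by 1000 for 6 elongation factor genes, Eef2k and Eif1; points are the 2 libraries of each label, bars their mean and error bars the SD. Libraries labelled knockout lie below those labelled WT for Eef1a1, Eef2, Eef1b2, Eef1d and Eif1, overlap with them for Eif5a, and lie above them for Eef2k.

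Eef2k, the calcium and calmodulin dependent kinase that phosphorylates eEF2 and slows elongation (chr7:120842831-120907450, plus strand), moved opposite to its substrate. It had 1826 and 1700 normalized counts in KO-labelled libraries, against 674 and 665 in WT-labelled libraries. Both values were far above those labelled WT, 2.63-fold higher in the means, with a log2 fold change of 1.40 ± 0.08 (limma adjusted p = 5.58e-05). Per length it was a rare transcript, at 4.11 RPKM in KO-labelled libraries and 1.49 in WT-labelled libraries, and by the mean over both groups it ranked 58 of the 61 genes. Of the methyltransferases that modify elongation factors, Eef1akmt1, which acts on a lysine of eEF1A, had 1589 and 1744 normalized counts against 1984 and 1942. It fell by 0.24 on the log2 scale, just inside the threshold (limma adjusted p = 0.0498), and was no longer called without any 1 of the 4 libraries, where the adjusted p reached 0.277. Eef2kmt, which modifies eEF2, was at 0.07 with overlapping groups.

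Subunits of eIF3, the scaffold that binds the small ribosomal subunit and links it to the mRNA complex, were lower in 8 of 14 genes. That is 57.1%, beside 13.4% over all genes tested and 24.1% over abundant ones. The median over the 14 was -0.23, and in 12 of them both libraries labelled knockout lay below both labelled WT, as in 32.3% of all genes tested. Eif3m, a subunit of the ring-like core, had 16150 and 16047 normalized counts in KO-labelled libraries, against 21064.5 and 21389 in WT-labelled libraries (log2 fold change -0.40 ± 0.03, limma adjusted p = 2.16e-04). This was the lowest ratio of all called members, at 0.758. Eif3k, also of the core, had 25010 and 25496.5 in KO-labelled libraries, against 32399.7 and 33642.5 in WT-labelled libraries (-0.39 ± 0.03, limma adjusted p = 3.01e-04). Eif3f, the most abundant eIF3 transcript per length, had 62110 and 62129 in KO-labelled libraries, against 73780 and 73302.5 in WT-labelled libraries (-0.24 ± 0.02, limma adjusted p = 5.94e-04). The replicates labelled knockout of this gene were almost equal, and both lay well below the values labelled WT.

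The other eIF3 genes that fell were Eif3e at -0.33, Eif3h at -0.28, Eif3i at -0.22, Eif3c at -0.16 and Eif3j1 at -0.37 on the log2 scale. Eif3c and Eif3i stood nearer the threshold, with limma adjusted p of 0.0479 and 0.0113. Eif3c was not called without either library labelled knockout or without replicate 2 labelled WT, and Eif3i not without replicate 1 labelled knockout. Eif3j1 encodes the loosely held subunit that helps in start-codon recognition, and had 2062 and 2175 normalized counts in KO-labelled libraries, against 2713 and 2776 in WT-labelled libraries. Its near-identical copy Eif3j2 had 573 and 580.1 in KO-labelled libraries, against 719.5 and 705 in WT-labelled libraries, a log2 fold change of -0.30 that was not called (limma adjusted p = 0.0522). Eif3j2 was called lower under median centring (-0.60, limma adjusted p = 0.00249) and with upper-quartile factors (-0.38, edgeR adjusted p = 0.0186). Per length, Eif3j1 took 59.5% and 60.5% of the pair in KO-labelled libraries, against 60.6% and 61.7% in WT-labelled libraries. Reads of these 2 genes may be split by the counting, which makes each value uncertain.

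Not called among eIF3 genes were Eif3l, Eif3g, Eif3a, Eif3d and Eif3b besides Eif3j2. Eif3b, a subunit that carries the factor's RNA-binding and propeller domains, was the only one whose libraries labelled knockout lay above those labelled WT, with 10862 and 11071 normalized counts against 10751 and 10294 (log2 fold change 0.06, interval -0.04 to 0.16). Eif3a, the largest subunit, was at -0.07. Grouped by the known structure, a division made with the values known, 6 of the 8 subunits of the core octamer (a, c, e, f, h, k, l and m) fell, with a median of -0.26. Of the remaining 6 genes (b, d, g, i and both copies of j) 2 fell, with a median of -0.15. Of all genes tested 13.4% fell, and of abundant ones 24.1%. The difference between these parts of eIF3 was not tested.

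**Figure D3:**
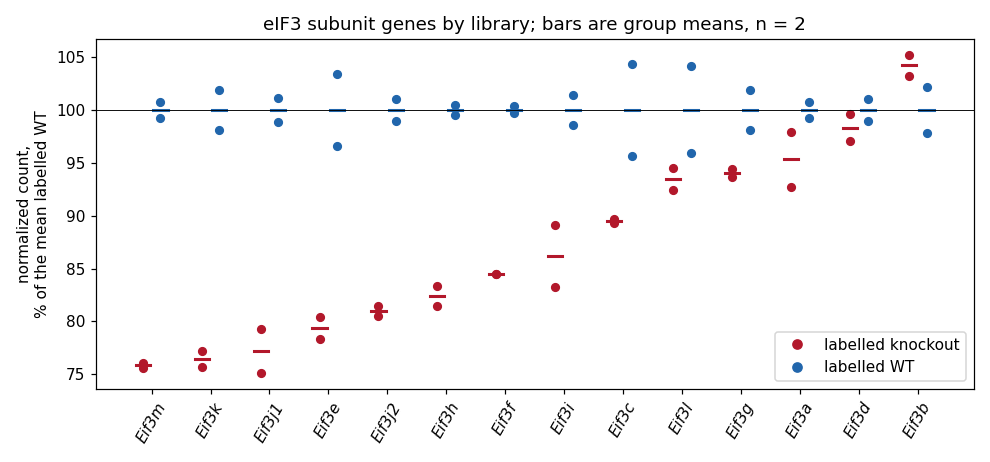
Normalized counts of the 14 eIF3 genes in each library as a percentage of the mean of the libraries labelled WT, ordered by ratio; points are libraries and short bars are group means (n = 2). Libraries labelled knockout run from near 75% for Eif3m to above 100% for Eif3b, the only gene where both lie above.

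Of the 9 genes for start-site selection and subunit joining, Eif1 fell and none of the others was called on the scale used here. That is 11.1% lower, near the 13.4% of all genes tested. Eif1, which guards the choice of start codon (chr11:100319885-100322096, plus strand), had 107206 and 106055 normalized counts in KO-labelled libraries, against 128227 and 139380 in WT-labelled libraries. The groups lay well apart, with a log2 fold change of -0.33 ± 0.04 (limma adjusted p = 0.00154). A processed copy, Eif1-ps1, had 494 and 576 in KO-labelled libraries, against 703 and 651 in WT-labelled libraries, and reads may have been divided between it and Eif1. Eif1b, a closely related gene, had 1985 and 1987 in KO-labelled libraries, against 2069 and 2399 in WT-labelled libraries and was not called (limma adjusted p = 0.184). Eif1b was called lower under median centring (-0.47, limma adjusted p = 0.00288) and with upper-quartile factors (-0.25, edgeR adjusted p = 0.0484). It made up 3.34% and 3.38% of the Eif1 and Eif1b level per length in KO-labelled libraries, against 2.92% and 3.11% in WT-labelled libraries.

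On the same scale the remaining factors of this step lay on both sides of 0. Eif5, the GTPase activator of eIF2, had 14040 and 13404 normalized counts in KO-labelled libraries, against 12952 and 12597 in WT-labelled libraries (log2 fold change 0.10, limma adjusted p = 0.097), and Eif1a, one of the genes for eIF1A, had 3052 and 2953 in KO-labelled libraries, against 2749 and 2733 in WT-labelled libraries (0.13, limma adjusted p = 0.113). Neither passed the threshold, although the groups did not overlap. Eif1ax, the X-linked gene for nearly the same protein, was at -0.14, and reads may be split between the pair. Eif5b, the GTPase of subunit joining, was at -0.20 (limma adjusted p = 0.111). Eif2a and Eif2d, alternative carriers of initiator tRNA, and Eif1ad had overlapping groups, with log2 fold changes from 0.01 to 0.06. Under median centring, where 56 of the 61 members were lower, all of these factors were below 0 and called. Eif5 was then at -0.20 and Eif1a at -0.17.

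Genes of the eIF2 trimer, which delivers the initiator tRNA, fell in 2 of 3 cases. Of all genes tested 13.4% fell, and of abundant ones 24.1%. Eif2s1, the alpha subunit whose phosphorylation shuts down initiation under stress, had 4241 and 4055 normalized counts in KO-labelled libraries, against 4748 and 4901 in WT-labelled libraries (log2 fold change -0.22 ± 0.05, limma adjusted p = 0.0181). Eif2s3x, the X-linked gene for the gamma subunit, had 4978 and 5017 in KO-labelled libraries, against 5807 and 5528 in WT-labelled libraries (-0.18 ± 0.05, limma adjusted p = 0.0277). Its Y-linked copy Eif2s3y, which is not a member, had 1276 and 1254 in KO-labelled libraries, against 32.6 and 26.5 in WT-labelled libraries, and reads of the pair may be split by the counting. Another Y-linked gene, Ddx3y, had 1436 and 1258 in KO-labelled libraries, against 15.3 and 51.1 in WT-labelled libraries, while Xist, an RNA of female cells, had 11724 and 10907 in KO-labelled libraries, against 18353 and 17767 in WT-labelled libraries. The sex of the animals may thus differ with the label, and sex and label cannot be told apart. Both KO-labelled libraries held Ddx3y and Xist together, and whether they hold cells of male and of female animals was not tested. Eif2s2, the beta subunit, had 4686 and 4481 in KO-labelled libraries, against 4722 and 5699 in WT-labelled libraries and was not called (limma adjusted p = 0.182). Without either library labelled knockout, Eif2s1 and Eif2s3x were no longer called, with adjusted p up to 0.129 and 0.144, and Eif2s3x was also lost without replicate 1 labelled WT.

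On the scale used here, neither the exchange factor of eIF2 nor its kinases gave a call in limma. The 5 genes of eIF2B, which reloads eIF2 with GTP, had log2 fold changes from -0.20 for Eif2b4 to 0.10 for Eif2b1, and their 95% intervals lay between -0.36 and 0.24. Only Eif2b4, with 2263 and 2453 normalized counts in KO-labelled libraries against 2654 and 2776 in WT-labelled libraries, had an unadjusted p under 0.05 (limma adjusted p = 0.0588). On the recovered reads, edgeR and DESeq2 each called 1 gene of eIF2B. Among the stress kinases of eIF2, Eif2ak1, which senses heme, had 5339 and 5119.9 in KO-labelled libraries, against 5489.5 and 4995 in WT-labelled libraries, values that overlap. Eif2ak3, the kinase of the unfolded protein response known as PERK, had 2888 and 2894 in KO-labelled libraries, against 2834 and 2878 in WT-labelled libraries. Eif2ak4, the amino acid sensor GCN2, had 773 and 783 in KO-labelled libraries, against 764 and 747 in WT-labelled libraries. Their 95% intervals lay between -0.17 and 0.25 on the log2 scale, none had an unadjusted p under 0.05, and edgeR with TMM factors and DESeq2 called 0 of the 3. With median centring Eif2ak1 was at -0.30 (limma adjusted p = 0.00893) and Eif2ak3 at -0.28 (limma adjusted p = 0.00521), both of which are calls.

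Of 10 genes of the cap-binding complex eIF4F and its helpers, 1 was higher and 2 were lower, where 19.9% and 13.4% of all genes tested were. The median was -0.02. Eif4a1, the RNA helicase that unwinds the leader of the mRNA (chr11:69666936-69672423, minus strand), had 33487 and 33833 normalized counts in KO-labelled libraries, against 29137 and 28501 in WT-labelled libraries. It was higher by 0.22 ± 0.03 on the log2 scale (limma adjusted p = 0.00197), a direction that turns under median centring (-0.08). Its processed copy Eif4a-ps4, which is not a member, had 2206 and 2179 in KO-labelled libraries, against 2158 and 1853 in WT-labelled libraries, and reads may be divided between the copies. Eif4a2, a second form of the helicase, had 21584.5 and 20816.5 in KO-labelled libraries, against 20728 and 21080.4 in WT-labelled libraries, with overlapping groups and a log2 fold change of 0.02, which became -0.28 and a call under median centring (limma adjusted p = 0.00104). Per length, Eif4a1 made up 65.6% and 66.7% of the 2 helicase transcripts in KO-labelled libraries, against 63.4% and 62.5% in WT-labelled libraries.

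Among the cap-binding proteins the variants fell and the main form was not called. Eif4e, the main cap-binding protein, had 4550.3 and 4162 normalized counts in KO-labelled libraries, against 4531 and 4278 in WT-labelled libraries, with overlapping values and a log2 fold change of -0.02 (interval -0.17 to 0.13). Under median centring it was -0.32 and called (limma adjusted p = 0.00739). Eif4e2, which binds caps without eIF4G and is known as a repressor, had 6023 and 6196 in KO-labelled libraries, against 7017 and 6839 in WT-labelled libraries (-0.18 ± 0.04, limma adjusted p = 0.0199). Eif4e3, another cap-binding variant, had 1782 and 1736 in KO-labelled libraries, against 2131 and 2454 in WT-labelled libraries (-0.38 ± 0.08, limma adjusted p = 0.0156). The groups of both variants did not overlap. Eif4e2 was not called without either library labelled knockout (adjusted p up to 0.145), and Eif4e3 was not called without replicate 2 labelled knockout (adjusted p = 0.0625). The difference between the variants and Eif4e was itself not tested.

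The eIF4G scaffolds, which bridge the cap-binding protein, the helicase and eIF3, were not called on the scale used here, but all 3 were lower under median centring, with limma adjusted p up to 0.038. Eif4g1 had 13639 and 12853 normalized counts in KO-labelled libraries, against 13326 and 13489 in WT-labelled libraries, and these overlap. Eif4g2, which lacks the part that binds eIF4E, had 28962 and 27561 in KO-labelled libraries, against 30165 and 30479 in WT-labelled libraries (log2 fold change -0.10, interval -0.19 to -0.02, limma adjusted p = 0.07). Its groups did not overlap, and with upper-quartile factors it was called lower (-0.18, edgeR adjusted p = 0.00618). Eif4g3 had 6465 and 5978 in KO-labelled libraries, against 5999 and 5603 in WT-labelled libraries (0.10, interval -0.04 to 0.24). Eif4b and Eif4h, which stimulate the helicase, were at 0.02 and -0.03.

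Of the inhibitors that bind eIF4E, Eif4ebp2 fell. This gene (chr10:61428491-61452661, minus strand) had 8887 and 8853 normalized counts in KO-labelled libraries, against 11133 and 11262 in WT-labelled libraries, with replicates close together, groups far apart and a log2 fold change of -0.34 ± 0.04 (limma adjusted p = 7.65e-04). Eif4ebp1, the form best known as an mTOR substrate, had 1507 and 1539 in KO-labelled libraries, against 1872 and 1537 in WT-labelled libraries, so that replicate 2 labelled WT lay between the libraries labelled knockout (limma adjusted p = 0.299). Under median centring Eif4ebp1 was at -0.46 and called (limma adjusted p = 0.0129). Eif4ebp3 had only 24.5 and 15.6 in KO-labelled libraries, against 6.11 and 41.9 in WT-labelled libraries, and with an interval of -1.88 to 2.36 a difference was not detectable at this depth. Eif4ebp2 made up 68.1% and 68.0% of the 3 transcripts per length in KO-labelled libraries, against 69.1% and 72.0% in WT-labelled libraries. Eif4enif1, which carries eIF4E into the nucleus and into sites of mRNA decay, had 3181 and 3019 in KO-labelled libraries, against 2734 and 2563 in WT-labelled libraries (0.23 ± 0.06, limma adjusted p = 0.0334). Its value was -0.07 under median centring, and it was not called without 3 of the 4 libraries in turn (all but replicate 1 labelled WT).

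The last 2 members that fell act outside the core steps. Eif4a3, a helicase of the exon junction complex, had 9237 and 9115 normalized counts in KO-labelled libraries, against 10715 and 9865 in WT-labelled libraries (log2 fold change -0.16 ± 0.05, limma adjusted p = 0.046), and was called only without replicate 2 labelled WT among the 4 fits that leave out a library. Eif6, which keeps the large subunit from joining too early, had 5539.9 and 5935 in KO-labelled libraries, against 6466.5 and 6630.3 in WT-labelled libraries (-0.19 ± 0.05, limma adjusted p = 0.0291). It was not called without replicate 1 labelled knockout (adjusted p = 0.2).

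The genes that fell lay mostly among the more abundant members. Ranked by the mean RPKM over both groups, 11 of the 20 most abundant members fell and 1 rose, and 8 of the next 20 fell. Of the 21 least abundant 2 fell and 2 rose. Lower calls also grew with level over the whole table, from 13.4% of all genes tested to 24.1% of those with a mean of at least 1000 normalized counts. The shares of higher calls were 19.9% and 21.8%. Across genes, the correlation of the mean log2 level per length over both groups with the log2 fold change was -0.32 (Pearson) and -0.26 (Spearman) over 61 genes, and -0.28 (Pearson) without Eef2k. These points share the same 4 libraries, which enter both measures. The members together took 2.39% and 2.34% of all reads in KO-labelled libraries, against 2.72% and 2.64% in WT-labelled libraries. Eef1a1 and Eef2 alone took 1.14% and 1.09% in KO-labelled libraries, against 1.39% and 1.33% in WT-labelled libraries, so the 59 other members held 1.248% and 1.24% in KO-labelled libraries, against 1.33% and 1.32% in WT-labelled libraries.

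Of 91 cytosolic ribosomal protein genes tested, 76.9% fell and 3.3% rose, beside 13.4% and 19.9% over all genes, with a median of -0.42. Replicate 2 labelled WT was over 1.5-fold above replicate 1 in 12 of the 91, among them Rps29, and without it 83 of the list fell. Among the 61 translation factors Eif4ebp3 alone had such a gap. All 93 ribosomal protein genes listed, tested or not, took 9.59% and 9.48% of reads in KO-labelled libraries, against 12.05% and 12.8% in WT-labelled libraries. Of 8 genes for poly(A)-binding proteins and their partners, 3 fell and 1 rose, where 13.4% and 19.9% of all genes tested did. Pabpc1, the main cytoplasmic poly(A)-binding protein, which contacts eIF4G, had 118177 and 120202 normalized counts against 151337 and 148317 (log2 fold change -0.33 ± 0.02, limma adjusted p = 1.53e-04). Paip2b, an inhibitor of that protein, fell by 0.41 on the log2 scale, and Pan3, of a deadenylase, was at 0.25 and higher.

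Of 15 genes of mTOR complex 1 and of the kinases around eIF4E, 6 rose and 2 fell, with a median of 0.17. The fallen are 13.3% of the list, near the 13.4% of all genes tested, and the share of all genes that rose was 19.9%. Mknk1, a kinase of eIF4E, had 4514 and 4576 normalized counts in KO-labelled libraries, against 2332 and 2317 in WT-labelled libraries (log2 fold change 0.97 ± 0.05, limma adjusted p = 3.44e-05). Its relative Mknk2 moved the other way, with 32903 and 32367 in KO-labelled libraries, against 38696 and 36782.5 in WT-labelled libraries (-0.21 ± 0.03, limma adjusted p = 0.00523). Rps6kb2, a ribosomal protein S6 kinase, was higher by 0.56 on the log2 scale. The other genes of the list that rose were Deptor (1.42), Akt1s1 (0.55), Larp1 (0.29) and Rheb (0.28). Mtor, Rptor and Mlst8 were not called. Pdcd4, an inhibitor of the eIF4A helicase, had 12724 and 12231 in KO-labelled libraries, against 17219 and 19026 in WT-labelled libraries (-0.54 ± 0.05, limma adjusted p = 6.17e-04).

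Cyfip1, which can bind eIF4E in a repressor complex, rose 0.96 on the log2 scale, and Ddx6, a helicase of mRNA decay, fell by 0.27. They were the only called genes among 7 eIF4E partners, or 14.3% in each direction, beside 19.9% higher and 13.4% lower over all genes. Of 6 genes for the eIF2 phosphatase and for hypusine synthesis, 1 rose and 3 fell, where 19.9% and 13.4% of all genes tested did. Dohh, the enzyme of the last hypusine step on eIF5A, rose 0.29, and Odc1, which makes the polyamine precursor, fell by 0.38. Ppp1ca, the catalytic subunit of a phosphatase that acts on eIF2 alpha, fell by 0.31. Among 23 genes for cytosolic aminoacyl-tRNA synthetases and their complex 5 rose and 3 fell, near the shares over all genes of 19.9% and 13.4%. The median was 0.01. The list includes Aimp1 and Aimp2, which are not synthetases, and Aimp1 was among those that fell (-0.20). By smallest adjusted p the called genes of this list were led by Cars at 0.38 and Aars at 0.23 upward, and by Qars at -0.19 and Kars at -0.17 downward. Of 9 release and recycling factors, Hbs1l rose 0.37 and Pelo, its partner in rescuing stalled ribosomes, fell by 0.23. These calls are 11.1% of that list in each direction, beside 19.9% higher and 13.4% lower over all genes. None of the 11 mitochondrial translation factors was called by limma on the scale used here, by edgeR with TMM factors or by DESeq2. In limma 1 had an unadjusted p under 0.05 (median 0.02).

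**Figure D4:**
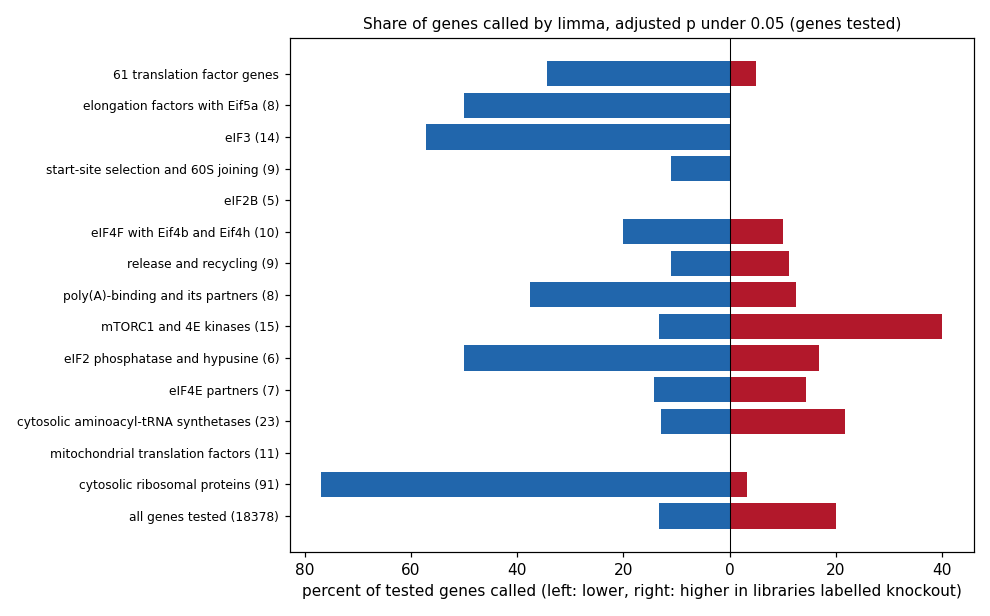
Percent of the tested genes in each group called lower (bars to the left) or higher (bars to the right) in KO-labelled libraries by limma at an adjusted p under 0.05; the number of genes tested is in brackets. The elongation factors, eIF3 and ribosomal proteins lie to the left, where all genes tested have 13.4% lower and 19.9% higher.

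In the authors' deposited table, 3 of the 61 genes were higher and 20 lower at its own adjusted p under 0.05, beside 15.5% and 10.1% of the genes with an adjusted p there. All 23 of these calls in the authors' deposited table had the same direction as a call by limma.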

How the data were processed

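The authors deposited 1 table of 49490 genes with a column of normalized counts (a signal) for each library, per the file headers. Beside them the authors deposited a log2 fold change of WT over knockout with its standard error, a Wald score, and p-values before and after adjustment. The sign of the deposited log2 values was turned around for comparison. The tools listed in the submitters' processing notes are DESeq2, StringTie 2.1.4, HISAT2 2.2.1 and Trim Galore 0.4.4, with mm10 as the build. For their settings, the annotation and strand, the entry is: not given in the sources used here. Groups came from the sample titles.

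Genes with a normalized count of at least 10 in at least 2 libraries (18378) were tested with limma 3.58.1 in R 4.3.3 (robust eBayes with a mean-variance trend) on log2(normalized count + 1), which understates changes of low genes. Two-sided p-values were adjusted by Benjamini-Hochberg across the whole set of tested genes (threshold 0.05), and the members' rows were read from that fit. With 2 libraries against 2, an exact permutation test cannot go below p = 0.333. Values of each column were whole multiples of 1 step for 100.0% of values within 0.01 reads, so whole reads were recovered, with totals of 58899365 to 59724952. On these reads edgeR 4.0.16 and DESeq2 1.42.0 were run as alternatives, beside centring, other pseudocounts and filters, a replicate block and leaving out each library. The fits were tested on simulated data. Same-numbered libraries did not deviate together (correlation 0.02), so the numbers were not used as pairs. Levels between genes are RPKM, reads scaled to annotated exon length (GENCODE M21, GRCm38) and to all recovered reads, and all 61 members had a gene there. How reads were divided between near-identical copies, such as Eef1a1 and its pseudogenes, is not stated.

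Values per library are given for up to 3 members in each direction and role by smallest adjusted p, for all members of 10 paralog sets and for Irf8, beside a few others chosen with their values known. In the other gene lists up to 2 genes in each direction were named, with a few more in the mTOR and synthetase lists. Members, lists and markers were chosen with earlier results of these data known. No column held other samples.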

Additional observations from a re-analysis of the deposited data

How the results depend on the processing

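Eef2k rose and Eef1a1, Eef2, Eef1b2, Eef1d, Eif1, Eif3e, Eif3f, Eif3h, Eif3j1, Eif3k, Eif3m and Eif4ebp2 fell in every one of the 14 other settings, so 13 of the 24 calls were kept throughout. The scale mattered most. Median centring moved the median of all genes by -0.30 on the log2 scale, gave 1 higher and 56 lower members with a median of -0.44, and called 2389 genes higher and 7210 lower over the table, so that 24.9% of calls were higher, beside 59.7% without it. Only Eif4a1, Eif4enif1, Eif4ebp3 and Eif2ak4 were not called under that centring. Upper-quartile factors gave 35 lower members, a median of -0.24 and 47.0% of calls higher. The median was -0.17 with both edgeR's TMM factors and DESeq2. Leaving out 1 library gave 2 to 3 higher and 13 to 25 lower members, with a median of -0.14 to -0.094, and over all genes 2195 to 4193 higher and 1540 to 2818 lower. The low counts of lower members, 13 and 14, came without a library labelled knockout. Such a fit leaves 1 library in a group, which is assumed to vary like the others.

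Signs of named genes turned as follows, and of those under centring Eif2ak3, Eif4a2, Eif4g3 and Eif5a then passed the threshold as lower. Under median centring, Eif4a1 was at -0.076, Eif4enif1 at -0.073, Eif2ak3 at -0.28, Eif2ak4 at -0.26, Eif4a2 at -0.28, Eif4g3 at -0.20, Eif4ebp3 at -0.064 and Eif5a at -0.26. With upper-quartile factors, Eif2ak3 was at -0.063, Eif2ak4 at -0.039, Eif4a2 at -0.060, Eif4ebp3 at -0.34 and Eif5a at -0.041. Eif4ebp3 was at -0.27 with TMM factors and with DESeq2. Leaving out a library gave a range of -0.005998 to 0.046 for Eif4a2, -1.06 to 1.53 for Eif4ebp3, -0.070 to 0.066 for Eif2ak1, -0.081 to 0.048 for Eif4e and -0.061 to 0.025 for Eif4g1. The cause of these moves was not tested beyond the construction of each setting.

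A fit with the replicate number as a block gave 3 higher and 17 lower members and lost Eif3c, Eif4a3, Eef1akmt1 and Eif2s3x, and over all genes 3415 higher and 2168 lower. The libraries share only a number, since the pairing showed a correlation of 0.02. Low depth widened the intervals of Eif4ebp3 and, with 278 to 414 reads per library, of Eif5a2 (-0.80 to -0.08).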

Other observations

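Names close to the members were measured but left out by the rule. Eif2ak2, the double-stranded RNA sensor PKR, had 1645 and 1449 normalized counts in KO-labelled libraries, against 1678 and 1489.8 in WT-labelled libraries, and was not called. Eif2s3y, the Y-linked gene for the gamma subunit of eIF2, was 42.8-fold higher in KO-labelled libraries (limma adjusted p = 4.96e-06). Mettl13, an eEF1A methyltransferase whose symbol does not match the patterns, had 787 and 735 in KO-labelled libraries, against 933 and 790.4 in WT-labelled libraries. Of the 7 pseudogenes left out, Eif4a-ps4 and Eif1-ps1 were the most abundant, and Eif5al3-ps had 49.97 and 64.2 in KO-labelled libraries, against 63.1 and 56.2 in WT-labelled libraries.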
